A study of Mus musculus with 3 samples.

Results

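The lymph node homing and egress receptors examined were 8 genes, Ccr7, S1pr1, S1pr4, Cxcr4, Ccr9, Cxcr3, Cxcr5 and Gpr183, of the 50600 genes in the deposited tables. They were taken as a list by symbol, paired with the Ensembl identifiers of the tables, and all 8 were found. RNA was sequenced from primary mouse cells of strain C57BL/6NJ that carry the label T-helper 1 (Th1), the helper T cells known for interferon gamma. The 1 group held 3 libraries, which the labels number as biological replicates 1, 2 and 3. Each has its own biosample and all share 1 donor identifier, with no treatment, sex or known age in the labels. Their spread, and every p-value below, is that between these 3 libraries, since nothing says that they came from separate animals. The header of each table named a time of 0 hours. No second group was analysed here, so levels were compared between genes within a library and between the 3 libraries.

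The label was set against marker genes. All 6 T cell markers, Cd4 and Trac among them, reached 1 TPM (counts scaled to exon length and to the library's total on that scale) in every library. Of the 5 Th1 markers, Tbx21 and Ifng, the lineage factor and the defining cytokine, had 4 counts each over the 3 libraries, Il18rap had 8 and Cxcr3 had 0. Il12rb2 had 284 counts, with exons that overlap a gene of the other strand. The cells are therefore called by their label only.

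These receptors sense chemokines or lipids through G proteins of the Gi class, and a lymphocyte's position follows the receptors it carries. Ccr7 reads Ccl19 and Ccl21 and brings naive and central memory T cells into lymph nodes across high endothelial venules. S1pr1 reads sphingosine 1-phosphate, which is high in blood and lymph, and is needed to leave the node, while S1pr4 binds the same lipid. Cxcr4 reads Cxcl12, Cxcr5 reads Cxcl13 of B cell follicles, Gpr183 reads oxysterols at the follicle border, Ccr9 reads Ccl25 of thymus and small intestine, and Cxcr3 reads the interferon-induced ligands Cxcl9, Cxcl10 and Cxcl11 and marks Th1 effector cells.

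Each gene is described with its surroundings, because fragments were counted by strand. Setting 1 of the counting program was used, which takes the first read of a pair as lying on the strand of the gene. The orientation of the library kit was not given in the sources used here, and whether the counted strand is the transcribed one was not tested. Ccr7 (ENSMUSG00000037944.8, chromosome 11, 99144196 to 99155077, minus strand, 3 merged exons), Cxcr4 (ENSMUSG00000045382.6, chromosome 1, 128588199 to 128592293, minus strand, 2 merged exons) and Cxcr3 (ENSMUSG00000050232.6, X chromosome, 101731535 to 101734269, minus strand, 2 merged exons) had no gene of the other strand within 5 kb. S1pr1 (ENSMUSG00000045092.8, chromosome 3, 115710433 to 115715072, minus strand, 2 merged exons) lay 77 bases from Gm9889, a long noncoding RNA gene that runs the other way. S1pr4 (ENSMUSG00000044199.6, chromosome 10, 81497747 to 81500132, minus strand, a single exon) lay 4340 bases from the pseudogene Gm16106 of the other strand.

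The bodies of the other 3 receptors overlapped genes of the other strand. Gpr183 (ENSMUSG00000051212.7, chromosome 14, 121952331 to 121965193, minus strand) lay inside Ubac2, between its merged exons 4 and 5 of 9, and shared 0 exonic bases with it. Cxcr5 (ENSMUSG00000047880.15, chromosome 9, 44511787 to 44561877, minus strand) shared its last 110 exonic bases with the end of Bcl9l. Ccr9 (ENSMUSG00000029530.16, chromosome 9, 123678439 to 123784330, plus strand) shared 1932 exonic bases with AC165425.1 and 22 with Slc6a20a, and its first intron held all of Lztfl1. On its own strand Ccr9 also shared 269 exonic bases with the long noncoding gene Gm17200. These coordinates follow the count tables, on mm10 with GENCODE M13.

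**Figure D1:**
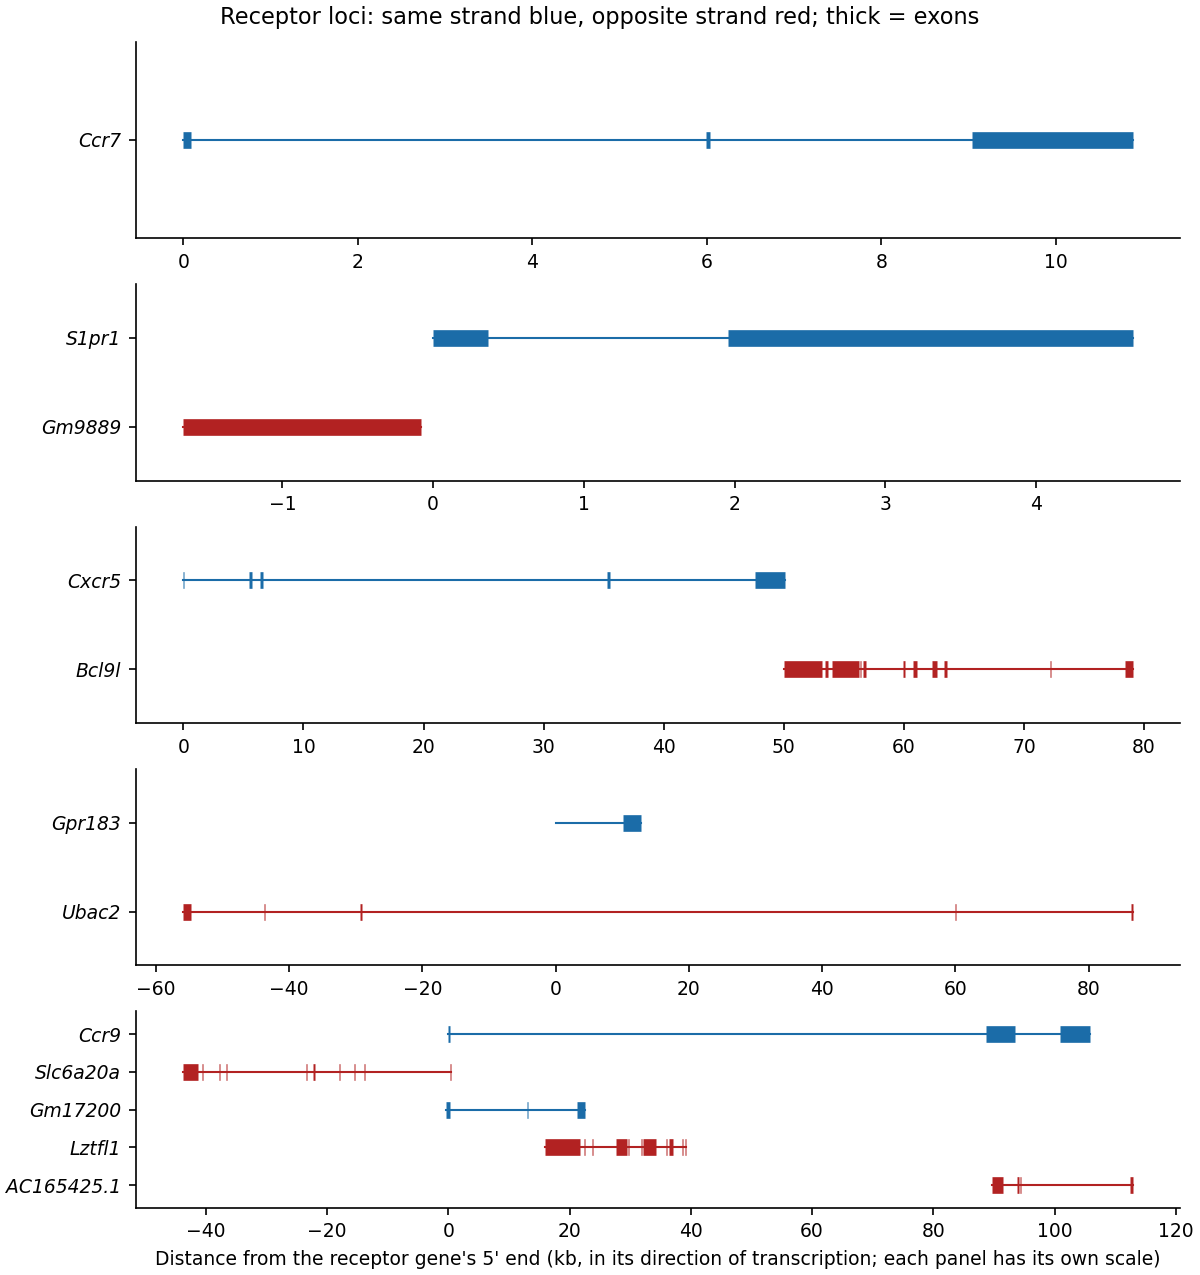
Exons (thick) and gene bodies (thin) of 5 receptor loci, from the deposited coordinates, drawn as distance in kb from the receptor gene's 5′ end in its direction of transcription; blue is the receptor's strand and red the other strand. Ccr7 stands alone and S1pr1 starts 77 bases from Gm9889, while Cxcr5 meets the end of Bcl9l, Gpr183 lies inside Ubac2 and Ccr9 spans Lztfl1.

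Start regions are shown for 4 receptors whose loci differ. S1pr4 and Cxcr4 have no gene of the other strand over them, Gpr183 starts inside Ubac2, and the start of Ccr9 differs between annotations. The windows are those of RefSeq (GRCm38.p6), 250 bases before to 50 after the start site, and 5 of the 8 receptors matched that table. Each is written 5′ to 3′ along the gene, with capitals marking CACCC or its reverse complement GGGTG, the core that Kruppel-like factors such as Klf2 bind.
S1pr4, chr10:81500088-81500387, minus strand: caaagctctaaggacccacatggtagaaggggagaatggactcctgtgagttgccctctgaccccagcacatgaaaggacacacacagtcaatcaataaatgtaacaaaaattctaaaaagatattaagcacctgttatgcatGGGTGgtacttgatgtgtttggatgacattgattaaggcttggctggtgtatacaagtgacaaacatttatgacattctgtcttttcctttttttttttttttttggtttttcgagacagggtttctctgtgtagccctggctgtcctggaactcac
Cxcr4, chr1:128592250-128592549, minus strand: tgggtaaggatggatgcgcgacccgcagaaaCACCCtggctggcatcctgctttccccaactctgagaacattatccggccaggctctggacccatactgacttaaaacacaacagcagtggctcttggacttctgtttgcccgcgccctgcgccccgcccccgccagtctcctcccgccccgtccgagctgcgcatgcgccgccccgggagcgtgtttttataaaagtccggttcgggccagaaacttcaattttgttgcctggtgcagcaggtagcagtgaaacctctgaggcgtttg
Gpr183, chr14:121965144-121965443, minus strand: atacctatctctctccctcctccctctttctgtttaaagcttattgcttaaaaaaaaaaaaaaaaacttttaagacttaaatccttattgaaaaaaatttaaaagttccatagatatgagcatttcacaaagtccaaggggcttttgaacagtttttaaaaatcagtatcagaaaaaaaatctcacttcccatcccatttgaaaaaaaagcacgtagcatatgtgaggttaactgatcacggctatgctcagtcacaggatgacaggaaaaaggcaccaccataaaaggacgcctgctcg
Ccr9, chr9:123766961-123767260, plus strand: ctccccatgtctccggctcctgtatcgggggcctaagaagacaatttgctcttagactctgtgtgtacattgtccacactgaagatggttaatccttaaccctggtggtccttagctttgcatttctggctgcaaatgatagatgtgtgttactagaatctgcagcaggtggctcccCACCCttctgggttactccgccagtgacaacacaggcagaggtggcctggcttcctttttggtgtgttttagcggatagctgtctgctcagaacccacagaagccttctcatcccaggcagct
CACCC was searched on both strands and found in 3 of the 5 windows, those of S1pr4, Cxcr4 and Ccr9, against 57.5% of all 32851 windows of this length. The forkhead core GTAAACA, which Foxo1 binds, and the TCF/LEF forms CTTTGAA and CTTTGAT were found in 0 of the 5, against 3.65%, 5.14% and 3.73% of all windows. A match of these letters is a description and not a measured site. The Ccr9 window starts from chromosome 9, 123767211, which is 88772 bases downstream of the start of the deposited gene. In GENCODE M21, 1 of 6 Ccr9 transcripts begins at that distant start.

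Depth was low and uneven. Replicate 1 had 3647366 counts, replicate 2 had 4305077 and replicate 3 had 2510319, of which the 8 receptors took 2470, 3921 and 1249. Genes that share exonic bases with a gene of the other strand took 63.1% of counts in replicate 1, 53.8% in replicate 2 and 76.5% in replicate 3. Genes with no such neighbour within 5 kb took 15.4%, 19.9% and 9.05%, and the sum of the 6 T cell markers was 1973, 3313 and 870 TPM (869.8 before rounding). The TPM of the other genes moves with this share, since TPM sums to a constant in each library, and other scalings are given beside the receptors below. In bulk RNA, fewer cells of a type and less RNA per cell cannot be told apart.

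Ccr7 was the highest of the receptors in each library. It had 690, 1296 and 263 counts in replicates 1, 2 and 3, which are 185, 334 and 89.0 TPM (203 ± 124, SD, n = 3). Replicate 2 was high and replicate 3 low. This mean ranked at 321 among 21764 protein-coding genes, above 98.5% of them.

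The egress receptor S1pr1 came next by mean level. It had 760, 1344 and 205 counts, or 133, 225 and 45.0 TPM (134 ± 90.1, n = 3). S1pr4, which binds the same lipid, had 160, 335 and 61 counts, or 35.6, 71.7 and 17.1 TPM (41.5 ± 27.7, n = 3). Both followed the order of Ccr7, with replicate 2 highest and replicate 3 lowest.

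Cxcr4, the receptor of the stromal and bone marrow chemokine Cxcl12, had 137, 197 and 63 counts. These are 40.3, 55.6 and 23.3 TPM (39.7 ± 16.2, n = 3). On the TPM scale it too was lowest in replicate 3, but after TMM scaling (trimmed mean of M-values) it stood at 35.5, 36.1 and 33.7 CPM (counts scaled to the effective library size), nearly level.

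The receptors of the follicle and its border, and also Ccr9 (below), stood apart from these by library. Gpr183 had 369, 399 and 313 counts, with exact Poisson 95% intervals of 332 to 409, 361 to 440 and 279 to 350. Its TPM were 66.6, 69.2 and 71.2 (69.0 ± 2.29, n = 3), so the 3 libraries lay within a few percent while S1pr1 differed several-fold. Cxcr5 had 94, 105 and 108 counts, or 15.0, 16.1 and 21.7 TPM (17.6 ± 3.60, n = 3). For both, replicate 3 was the highest of the libraries by TPM although it was the shallowest, for Gpr183 by a margin smaller than its counting error.

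Ccr9, the gut and thymus homing receptor, had 260, 245 and 236 counts. Over the deposited exon length of 10260 bases these are 13.5, 12.2 and 15.4 TPM (13.7 ± 1.61, n = 3). That length sums the exons of all transcripts, and with the longest coding transcript of GENCODE M21, 5197 bases, the mean was 27.0 ± 3.19 TPM. For Cxcr3 each of the 3 libraries had 0 counts, which allows up to 3 counts, or 0.921, 0.885 and 1.16 TPM. That floor covers counting error only, on the counted strand.

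Levels among genes that share no exonic bases with the other strand, with mitochondrial and rRNA genes left out, gave a second reading. On that scale Ccr7 stood at 729 ± 210 TPM, S1pr1 at 470.1 ± 186, Gpr183 at 292.8 ± 124 and Cxcr4 at 150.1 ± 8.64 (n = 3). The 3 libraries were close for Gpr183 on the first scale only, and for Cxcr4 on the second only.

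Thus 7 of the 8 receptors reached 1 TPM in all 3 libraries, against 41.6% of protein-coding genes, and the exception was Cxcr3. The median receptor had a mean of 40.6 TPM, against 0.603 TPM over all protein-coding genes, silent ones included. Over the 10662 genes that passed a filter on low counts the median was 16.5 TPM. Among the 7 are Ccr9, Cxcr5 and Gpr183, whose bodies overlap genes of the other strand.

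**Figure D2:**
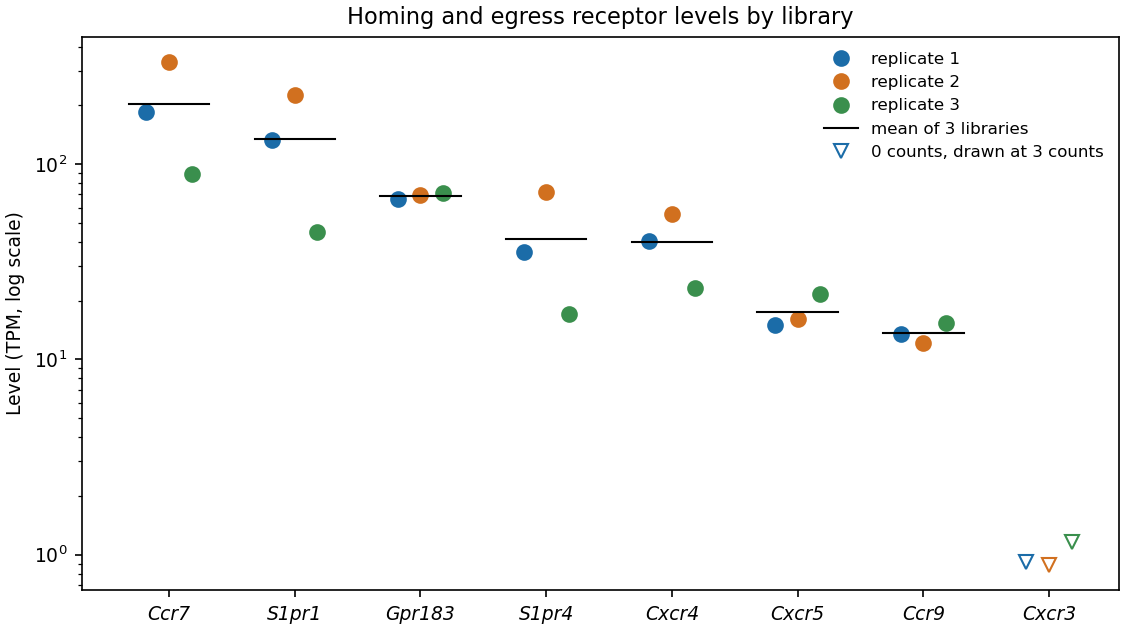
Level of each receptor in TPM (log axis) in replicates 1, 2 and 3, with a line at the mean; open triangles for Cxcr3 mark 0 counts, drawn at the value of 3 counts. Ccr7, S1pr1, S1pr4 and Cxcr4 spread widely with replicate 2 on top, while Gpr183, Cxcr5 and Ccr9 keep to a narrow range with replicate 3 on top.

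Neighbours in the order of mean TPM were compared within each library. Ccr7 exceeded S1pr1 in 3 of 3 libraries, Cxcr4 exceeded Cxcr5 (by 1.07-fold in replicate 3), Cxcr5 exceeded Ccr9 and Ccr9 exceeded the floor of Cxcr3, each beyond the SD of its log2 ratio. The lead of Cxcr5 over Ccr9 was 1.28-fold per base and rests on the deposited exon length, since with the longest coding transcripts Ccr9 (27.0 TPM) lay above Cxcr5 (20.6 TPM). S1pr1 against Gpr183, Gpr183 against S1pr4 and S1pr4 against Cxcr4 did not keep 1 sign over the libraries. S1pr1 exceeded Gpr183 by 3.25-fold in replicate 2 but stood at 0.633 of it in replicate 3. Gpr183 stood at 0.966 of S1pr4 in replicate 2 and at 4.14 times it in replicate 3.

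The 6 pairs set by role were compared as log2 ratios of TPM + 0.1, with the library as the block. Each kept its sign in 3 of 3 libraries. An exact two-sided sign-flip test over 3 libraries cannot go below p = 0.25, which every pair gave (0.25 after adjustment over the 6), so none could pass. Ccr7, for entry, exceeded S1pr1, for egress, by 0.68 ± 0.27 (SD, n = 3). The ratio of their summed counts, 2249 and 2309, per base had an exact Clopper-Pearson 95% interval of 1.41 to 1.59 for counting error. The ratio was 1.398, 1.48 and 1.97 in replicates 1, 2 and 3. That interval is for the summed counts, and the counting error of a single library is wider. A value outside it is therefore no test of spread between the libraries. Whether this ratio varied beyond counting error was not tested.

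Cxcr4 stood below S1pr1 by a log2 ratio of −1.56 ± 0.55 (n = 3), with ratios of 0.304, 0.247 and 0.519 in replicates 1, 2 and 3. S1pr1 exceeded S1pr4 by 1.64 ± 0.25, a ratio per base of summed counts of 3.25 (interval 2.96 to 3.58). In replicates 1, 2 and 3 it was 3.71, 3.14 and 2.62. These 4 genes share the same library order by TPM, and of the pairs set by role those among them moved least. Cxcr5 over Ccr9, not among those pairs, had a smaller SD of its log2 ratio, 0.17.

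The ratios of Ccr7 to the receptors of other sites were larger and less stable. Ccr7 exceeded Cxcr5 by a log2 ratio of 3.34 ± 1.19 (n = 3), with ratios of 12.3, 20.7 and 4.09 in replicates 1, 2 and 3. Against Ccr9 it was 3.69 ± 1.12, with ratios of 13.7, 27.2 and 5.75. Both were lowest in replicate 3, where Cxcr5 and Ccr9 were highest. Against Cxcr3, set at 3 counts in each library, Ccr7 was at least 76.7-fold higher in the library with the smallest ratio.

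The next comparison asked how the receptors varied between the 3 libraries once scaled. A Poisson chi-square test per gene on TMM sizes set the differences against counting error, with Benjamini-Hochberg adjustment over the 10662 genes that passed the filter on low counts. Of the 8 receptors 7 passed that filter, Cxcr3 being the exception, and 6 of these 7 varied at an adjusted p of at most 0.05. Over all genes tested 62.4% did, so the receptors' share, 6 of 7, stands beside a high background. Without replicate 3, 5 receptors varied and Cxcr5 lost its call (adjusted p = 0.203, chi-square test), against 31.1% of tested genes. Without replicate 2, 5 varied and S1pr4 lost its call (adjusted p = 0.184, chi-square test), against 48.3% of tested genes.

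The 6 split by direction. Ccr7, S1pr1 and S1pr4 were lowest in replicate 3 (27.3% of tested genes were called and lowest there). Ccr9, Cxcr5 and Gpr183 were highest in replicate 3 (32% of tested genes were called and highest there). Cxcr4 did not pass (adjusted p = 0.909, chi-square test). With a negative binomial error of the common dispersion between these libraries, 0.141 by edgeR, 0 of the 7 receptors passed, 0 had an unadjusted p under 0.05 (783 of all tested genes did), and 4 genes in all passed (0.0375%). The differences of the 6 thus exceeded counting error. The common dispersion was estimated from these same 3 libraries and takes in their differences, so few genes could pass that second test. It therefore cannot show whether a receptor varied more than genes in general.

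The sizes were as follows. S1pr1 stood at 197, 246 and 110 CPM (109.6 before rounding) in replicates 1, 2 and 3, a log2 ratio of replicate 3 to 2 of −1.16 (adjusted p = 9.7e-28, chi-square test). For S1pr4 the ratio was −0.90 (adjusted p = 5.7e-07, chi-square test) and for Ccr7 −0.75 (adjusted p = 3.3e-17, chi-square test). All 3 were lower in replicate 3 than in replicate 1 as well by TMM.

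In the other direction Cxcr5 stood at 24.3, 19.2 and 57.8 CPM, a log2 ratio of replicate 3 to 2 of 1.56 (adjusted p = 8.3e-17, chi-square test). Ccr9 stood at 67.3, 44.9 and 126 CPM, a ratio of 1.48 (adjusted p = 4.2e-30, chi-square test). Gpr183 stood at 95.6, 73.1 and 167 CPM, a ratio of 1.19 (adjusted p = 9.5e-28, chi-square test). In these 3 genes replicate 1 lay between the others, as it did in Ccr7, S1pr1 and S1pr4.

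The directions were the same when sizes came only from genes with no gene of the other strand within 5 kb, where 6 receptors and 53.1% of tested genes varied. This scaling moved the median log2 ratio of all tested genes from −0.11 to 0.34. On that scale the ratios of replicate 3 to 2 were −0.71 for S1pr1, −0.45 for S1pr4 and −0.30 for Ccr7. Against replicate 1, replicate 3 was close for Ccr7 (189.7 and 196 CPM in replicates 3 and 1) and S1pr4 (44.0 and 45.5 CPM). The ratios of replicate 3 to 2 were 2.02 for Cxcr5, 1.94 for Ccr9 and 1.65 for Gpr183. Cxcr4 was the receptor whose sign depended on the scale, at −0.10 by TMM, 0.0034 by DESeq2 size factors and 0.35 on that scale. On raw totals, where the median over all tested genes was −0.85, Cxcr4 stood at −0.85 and passed the test, so that 7 of 7 receptors varied, against 82.5% of tested genes.

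**Figure D3:**
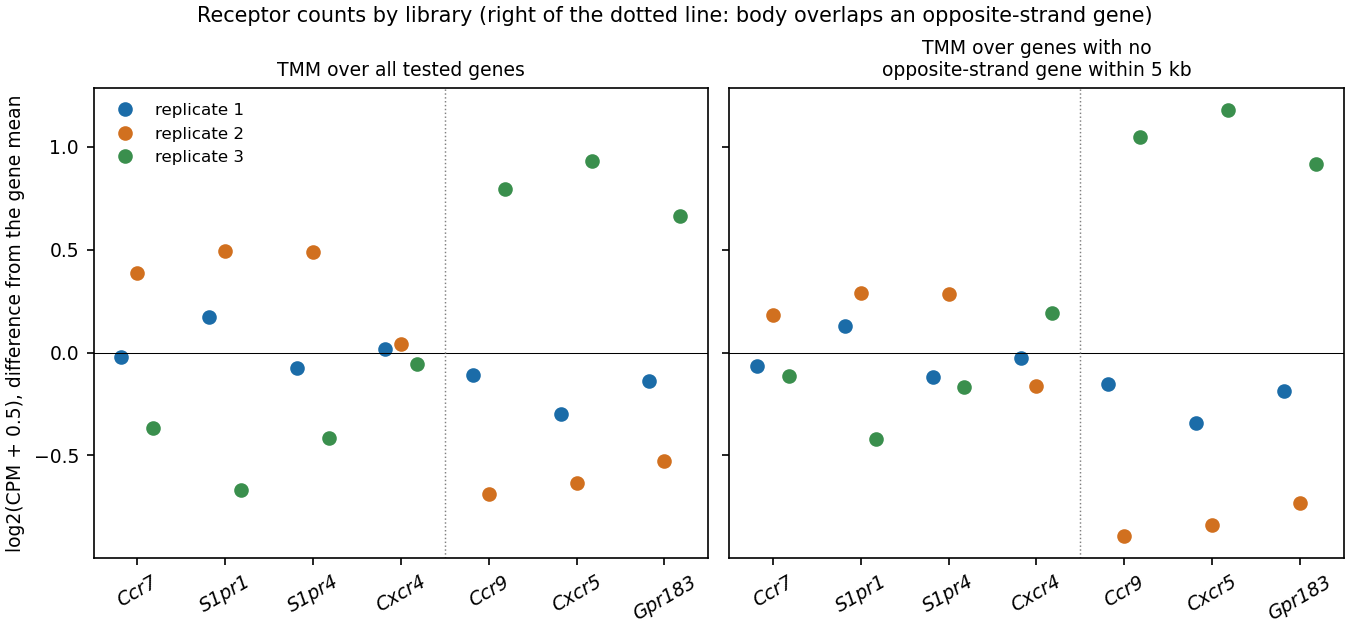
Difference of log2(CPM + 0.5) from each receptor's own mean in replicates 1, 2 and 3, with TMM sizes from all tested genes (left) or from genes far (over 5 kb) from any opposite-strand gene (right). Replicate 3 is lowest for Ccr7, S1pr1 and S1pr4 and highest for Ccr9, Cxcr5 and Gpr183 in both panels, and Cxcr4 changes sign.

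The same split followed the annotation of the loci. The 3 receptors that were highest in replicate 3 are the 3 whose bodies overlap a gene of the other strand. Of all tested genes, 66.3% of those that share exonic bases with the other strand were highest in replicate 3. The share was 37.7% with overlap of bodies alone, 27.7% with a neighbour within 5 kb and 18.5% with none. Lowest in replicate 3 were 26.4%, 50.4%, 58.6% and 68.5% of these classes, in the same order. With overlap of bodies alone, the class of Gpr183, more genes were thus lowest there than highest. The median log2 ratio of replicate 3 to 2 in that class was −0.22, against 1.19 for Gpr183. Among the 2600 tested genes with none, 96.0%, 97.1% and 97.4% had a lower ratio of replicate 3 to 2 than Gpr183, Ccr9 and Cxcr5. For S1pr1, S1pr4, Ccr7 and Cxcr4 that share was 10.2%, 21.1%, 28.9% and 73.7%. The share of counts on genes with exon overlap was also lowest in replicate 2 and highest in replicate 3, and its part in the split was not tested.

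**Figure D4:**
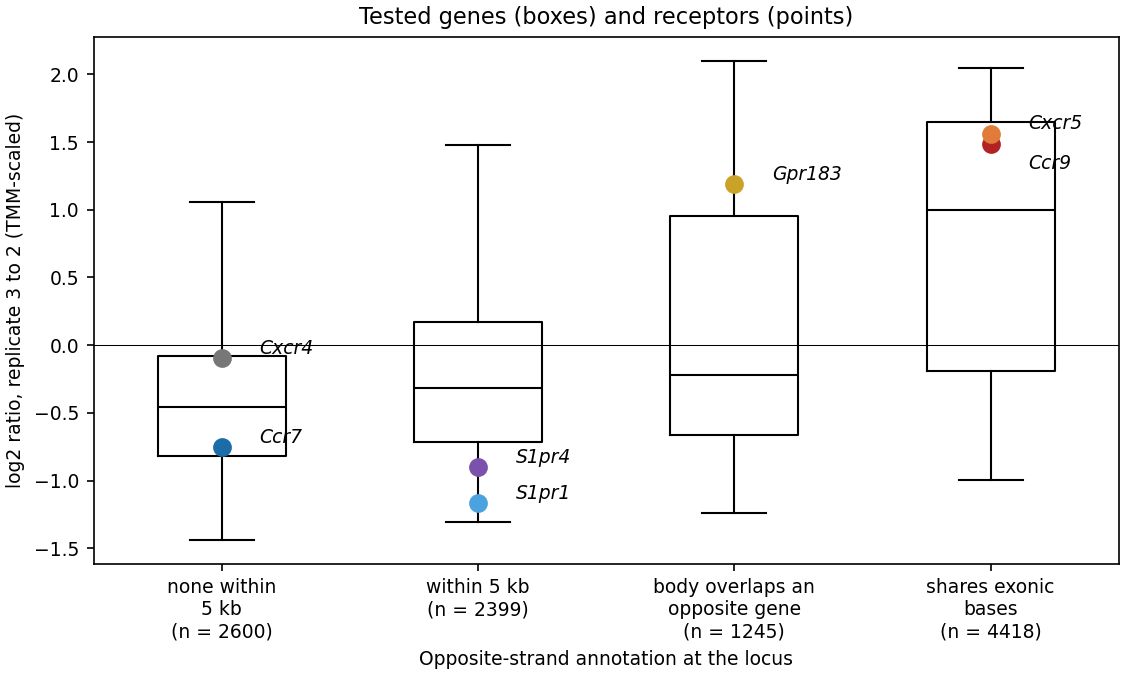
Log2 ratio of replicate 3 to 2 (TMM-scaled) for tested genes by the opposite-strand annotation of their locus: boxes span the quartiles, whiskers the 5th to 95th percentile, lines the median, and points the receptors. Ccr9, Cxcr5 and Gpr183 lie above 0 in the classes with overlap, and Ccr7, S1pr1, S1pr4 and Cxcr4 lie below 0 in the classes without it, Cxcr4 at −0.10 (0.0034 by DESeq2 size factors).

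The genes on the other strand gave a reading of the same loci. Ubac2, a ubiquitin-associated gene around Gpr183, had 142, 212 and 69 counts, and Gpr183 had 1.90, 1.38 and 3.32 times its counts per base in replicates 1, 2 and 3. Bcl9l, a Wnt co-activator gene, had 454, 663 and 224 counts, and Cxcr5 stood at 0.497, 0.380 and 1.16 of its counts per base. In both loci the receptor's share was largest in replicate 3. Neither Ubac2 (log2 ratio of replicate 3 to 2 of −0.07) nor Bcl9l (−0.02) passed the chi-square test, with adjusted p of 0.881 and 0.889.

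At the Ccr9 locus, Lztfl1 had 53, 80 and 14 counts and AC165425.1 had 22, 28 and 11. Gm17200, on the strand of Ccr9, had 286, 258 and 305 counts, a log2 ratio of replicate 3 to 2 of 1.78, which is near the 1.48 of Ccr9. Gm9889, beside S1pr1, had 80, 64 and 64 counts and a ratio of 1.51, opposite in sign to S1pr1. Whether the counts of Ccr9, Cxcr5 and Gpr183 come from the receptors' own transcripts was not tested.

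Cxcr5 and Gpr183 are also B cell genes, as are Ccr7 and S1pr1. The 7 B cell markers summed to 271, 401 and 123 TPM in replicates 1, 2 and 3, most of it Ighm, and 4 of the 7 had counts. Ms4a1, Igkc and Pax5 had 0 counts and Cd79b had 1, while Cd79a, a part of the B cell receptor, had 91, 138 and 108 (43.7 ± 9.14 TPM, n = 3). The sum of the 7, carried by Ighm (842, 1300 and 207 counts), was lowest in replicate 3. Cd79a, at 23.6, 25.3 and 57.8 TMM-scaled CPM, was highest there, as were Cxcr5 and Gpr183. Markers of node stroma (Pdpn, Ccl19, Ccl21a and Cxcl13 at 0, Col1a1 at 2 counts) were at or near 0. The 6 myeloid markers summed to 81.2, 68.0 and 95.9 TPM, nearly all of it Csf1r, which has exon overlap on the other strand. Adgre1, Cd14 and S100a8 had 0 counts, Lyz2 had 1 and Itgam had 13. The 6 dendritic cell markers summed to at most 4.88 TPM in a library and the 4 NK cell markers to at most 7.57. The 2 CD8 markers summed to at most 18.4 TPM, carried by Cd8b1 (97 counts in all) with Cd8a at 1 count. The 6 node endothelium markers summed to at most 71.3 TPM, nearly all of it Pecam1 (1611 counts in all). Of the others Cdh5 had 4 counts, Lyve1 and Glycam1 had 1 each, and Prox1 and Madcam1 had 0. The part of other cells in the receptors' counts was not tested.

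Genes with the most similar library profile were sought among 5374 protein-coding genes without exon overlap and with at least 10 counts in every library, by the Euclidean distance of log2(CPM + 0.5) deviations. With 3 libraries a profile holds little, so these are descriptions only. Nearest to Ccr7 were Cox5b, Gpr146 and 1110038F14Rik (distances 0.0093 to 0.020), to S1pr1 Ptch1, Zfp266 and Ezh1 (0.0092 to 0.011), and to S1pr4 Gimap6, Pdp2 and Bach1 (0.0041 to 0.024). Nearest to Cxcr4 were Sf3b2, Rsrc2 and Rpl29 (0.0019 to 0.010). Nearest to Ccr9 were Evpl, Mtfr1 and St3gal2 (0.0034 to 0.012), to Cxcr5 Cxadr, Otub2 and Mylpf (0.012 to 0.044), and to Gpr183 Stip1, Tor3a and Tapbpl (0.014 to 0.031).

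The ligands of these receptors were nearly silent in the same libraries. Of 8 ligand genes, 7 (Ccl19, Ccl21a, Cxcl12, Cxcl9, Cxcl10, Cxcl11 and Cxcl13) had 0 counts. Ccl25, the ligand of Ccr9, had 18, 23 and 3 counts (1.04 ± 0.686 TPM, n = 3), with exon overlap on the other strand.

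Of 11 genes that make, move or break down the lipid ligands, 5 reached 1 TPM in all libraries and 4 had 0 counts. Sphk2, a kinase that makes sphingosine 1-phosphate, stood at 82.4 ± 5.01 TPM (n = 3), and Sphk1 had 0 counts. Plpp1, a lipid phosphatase, stood at 55.8 ± 14.4 TPM. Both have exon overlap, were called by the chi-square test and were highest in replicate 3, with log2 ratios of replicate 3 to 2 of 1.19 and 1.90. The third of the 5 tested genes to be called was Sgpl1, the lyase that breaks the lipid down, with 87, 174 and 32 counts, which was lowest in replicate 3 (ratio −0.88, adjusted p = 0.0016, chi-square test). Thus 3 of 5 tested genes varied, near the 62.4% of all. Sgpp1, a sphingosine 1-phosphate phosphatase with no gene opposite within 5 kb, stood at 10.4 ± 4.31 TPM. Of the oxysterol enzymes, Ch25h and Cyp7b1 had 0 counts and Hsd3b7 had 5, 5 and 2.

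Other receptors of the same families were mostly at the floor. Among the 3 other sphingosine 1-phosphate receptors, S1pr2 had 6, 11 and 0 counts, S1pr3 had 0, and S1pr5 had 0, 0 and 2. A list of 13 other chemokine receptors held 8 genes with no more than 3 counts in all, and 1, Cxcr6, reached 1 TPM in all of them. Among these 13 Ccr4, a Th2 and skin receptor, had 5, 2 and 0 counts. Of 5 atypical chemokine receptor genes 3 had 0 counts, Ccrl2 had 2 in all, and 1, Ackr4, reached 1 TPM in every library.

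Adhesion molecules of homing were abundant, with 10 of 10 at 1 TPM or more in all libraries and a median of 58.7 TPM. The integrin genes Itgb7 and Itgb2, whose products bind ligands on gut and node vessels and on other cells, stood at 199.5 ± 95.4 and 161 ± 70.7 TPM (n = 3). By the chi-square test 8 of the 10 varied, 6 of them lowest and 1 highest in replicate 3, against 62.4%, 27.3% and 32% of all tested genes. Of tested genes with no gene of the other strand within 5 kb, 68.5% were lowest there, called or not. On sizes from genes without a neighbour 7 of the 10 varied (53.1% of all). The 1 highest in replicate 3 was Itgae, an integrin of gut T cells whose body overlaps another gene, with a log2 ratio of replicate 3 to 2 of 1.06. Of the 10, 7 had a negative ratio by TMM and 3 on sizes from genes without a neighbour within 5 kb.

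Regulators of the receptor genes were all measured, 9 of 9 at 1 TPM or more in all libraries. Tcf7, which encodes the transcription factor TCF1 of naive T cells, stood at 619 ± 332 TPM (n = 3), Klf2, which drives S1pr1, at 121 ± 62.7 TPM, and Lef1 at 70.9 ± 25.5 TPM. All 9 varied by the chi-square test (62.4% of all tested genes did), 7 of them lowest in replicate 3 (27.3% of all). Of tested genes with no gene of the other strand within 5 kb, 68.5% were lowest there, called or not, and Foxp1 and Cd69 of the 7 are in that class. Foxo1, Satb1, Klf3 and Bach2 have exon overlap, where 26.4% of tested genes were lowest. Tcf7 has overlap of bodies alone, where 50.4% were. On sizes from genes without a neighbour 6 of the 9 varied (53.1% of all). Lef1, with exon overlap, was highest in replicate 3, and Klf2 was neither. Foxo1, which acts on Klf2 and Ccr7 and has exon overlap on the other strand, had the largest range of the 9, with a log2 ratio of replicate 3 to 2 of −0.94 by TMM and −0.49 on sizes from genes without a neighbour. Klf2 had −0.33 by TMM and 0.13 on those sizes, so its direction depended on the scale. Cd69, which holds S1pr1 inside the cell, stood at 12.2 ± 6.998 TPM, below S1pr1 in mean level.

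The signalling genes below the receptors were well covered. Of 17 genes of Gi signalling and desensitisation, 14 reached 1 TPM in all libraries, led by the receptor kinases Grk6 at 188 ± 106 TPM and Grk2 (an older symbol is Adrbk1) at 145 ± 76.3 TPM and by Gnai2, the main Gi alpha subunit, at 143 ± 75.3 TPM. Of 15 tested, 10 varied, near the 62.4% of all tested genes, with 9 of them lowest in replicate 3 (27.3% of all). Of tested genes with no gene of the other strand within 5 kb, 68.5% were lowest there, called or not. On sizes from genes without a neighbour 4 of the 15 varied (53.1% of all). Gna13, with exon overlap, had the largest range of those called (log2 ratio of replicate 3 to 2 of −0.94). All 15 had a negative ratio by TMM, and 8 did on those sizes.

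The 14 genes of the migration machinery all reached 1 TPM in all libraries, with a median of 89.4 TPM. Coro1a, an actin regulator needed for egress, led at 586 ± 294 TPM (n = 3), with exon overlap, before the exchange factor gene Arhgef1 at 370.4 ± 171 TPM and the GTPase gene Rac2 at 218 ± 129 TPM. All 14 varied by the chi-square test and 13 were lowest in replicate 3, against 62.4% and 27.3% of all tested genes. Of tested genes with no gene of the other strand within 5 kb, 68.5% were lowest there, called or not. On sizes from genes without a neighbour 5 of the 14 varied (53.1% of all). The largest range was that of Cdc42, whose body overlaps another gene, with a log2 ratio of replicate 3 to 2 of −1.21, and −0.76 on those sizes. There 8 of the 14 ratios were negative, beside a median of 0.0013 over tested genes with no gene of the other strand within 5 kb.

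**Figure D5:**
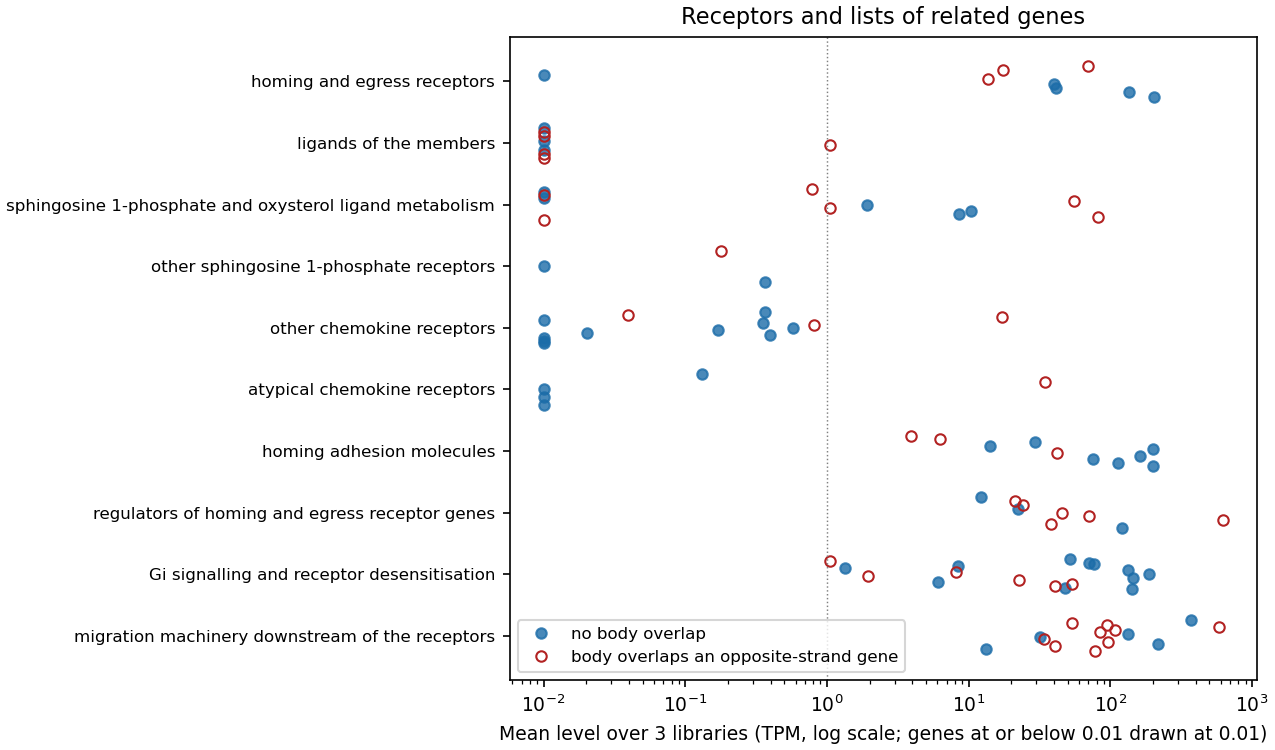
Mean TPM (log axis, values at or below 0.01 drawn at 0.01) of the receptors and of 9 lists of related genes, open red where the gene body overlaps a gene of the other strand; the dotted line is 1 TPM. Ligand genes and most other receptors lie at or near 0, while adhesion, regulator and signalling genes lie mostly above 10 TPM.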

How the data were processed

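The deposited values are raw fragment counts, which the authors obtained with featureCounts 1.4.6-p4 over GENCODE M13 exons joined by gene identifier (fragments with both ends mapped, strand setting 1), per the file headers. The assembly is mm10, per the labels, which give total RNA but point to a poly(A) RNA library protocol. The aligner's version and the kit's orientation are not given in the sources used here. If the kit's orientation is opposite to that setting, a gene's counts come from the other strand. The command has no option for multi-mapping fragments or for those on 2 genes.

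TPM were computed from the counts and the deposited exon lengths. Symbols came from GENCODE M21 by identifier (50376 of 50600), and opposite-strand neighbours from the deposited coordinates with bedtools 2.31.1. Counts were scaled with TMM in edgeR 4.0.16, or by DESeq2 1.42.0 size factors, raw totals, or TMM over genes over 5 kb from any opposite-strand gene. The per-gene Poisson chi-square test (2 degrees of freedom, 10662 genes kept by filterByExpr, Benjamini-Hochberg, 0.05) compares these libraries and not conditions. Pairs used log2(TPM + 0.1) and a floor of 3 counts per library. Intervals are 95% and cover counting error only, since PCR duplicates are not told apart. Depth was 2510319 to 4305077 counts per library.

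The receptors, lists, markers and tests were chosen with earlier results of these data known. Named were all 8 receptors, the genes opposite them, the 3 highest genes of each list, its called gene of largest range, ligands with counts and the 3 nearest genes to each receptor. Some genes these rules name are not reported here. Other genes named were chosen after their values were seen. The longest coding transcript as length, and the ratio of replicate 3 to 2 under each scaling, were also added after the data were seen. The protocol's listing files were not used.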

Additional observations from a re-analysis of the deposited data

How the results depend on the processing

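The number of receptors at 1 TPM or more in all libraries was 7 under the 3 other scalings tried and with each library left out. The receptors that varied numbered 6 under DESeq2 size factors, under TMM from genes over 5 kb from any opposite-strand gene and with no filter on low counts, 7 on raw totals, and 5 to 6 with a library left out: S1pr4 lost its call without replicate 2 (adjusted p = 0.184, chi-square test) and Cxcr5 without replicate 3 (adjusted p = 0.203, chi-square test). With the negative binomial error 0 receptors and 4 of all tested genes passed. Over all genes 6649 varied, and 3316 to 6640 with a library left out, 3316 being without replicate 3. Of the called genes, 51.4% were highest and 43.7% lowest in replicate 3 by TMM, 57.6% and 38.3% by DESeq2 size factors, 27.2% and 68.4% on raw totals, and 79.8% and 16.5% with TMM from genes without a neighbour, while the receptors split 3 to 3 in each except raw totals (3 to 4).

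Without length correction the log2 ratio of Ccr7 to S1pr1 was 0.056, of Cxcr4 to S1pr1 −2.31, of S1pr1 to S1pr4 2.00 and of Ccr7 to Ccr9 1.32. With a library left out the ratios ranged from 0.53 to 0.78 for Ccr7 to S1pr1, −1.87 to −1.33 for Cxcr4 to S1pr1, 1.52 to 1.77 for S1pr1 to S1pr4, 2.83 to 3.99 for Ccr7 to Cxcr5, 3.15 to 4.27 for Ccr7 to Ccr9 and 6.82 to 7.96 for Ccr7 to the floor of Cxcr3. No pair changed sign. With TPM over genes without exon overlap, mitochondrial genes and rRNA, Cxcr4 (150.1 TPM) lay above S1pr4 (147.1 TPM). With a pseudocount of 2, between 0 and 1 of the 3 nearest genes were shared for 6 receptors. No paired analysis was possible because there is 1 group. Depth limits Cxcr3 to its floor, and 3 libraries limit every comparison.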

Other observations

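Cxcr6 and Ackr4 stood out from their families, and both were chosen after their values were seen. Ackr4, a scavenger receptor of Ccl19, Ccl21 and Ccl25, had 311, 304 and 361 counts in replicates 1, 2 and 3 (34.8 ± 8.78 TPM, n = 3), while Ackr1, Ackr2 and Ackr3 had 0. It lies inside Acad11 of the other strand, with which it shares 479 exonic bases, and Acad11 itself had 32, 68 and 9 counts. Cxcr6, a receptor of effector and tissue T cells, had 68, 44 and 61 counts (17.2 ± 4.94 TPM, n = 3) and lies inside Fyco1 of the other strand, which had 363, 402 and 148 counts.

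Both were called by the chi-square test and were highest in replicate 3, with log2 ratios of replicate 3 to 2 of 1.95 for Cxcr6 and 1.78 for Ackr4 by TMM. These ratios lie on the side of Ccr9, Cxcr5 and Gpr183 and opposite to Ccr7, S1pr1 and S1pr4. Of the 21 other receptor genes of the 3 lists, Cxcr6 and Ackr4 alone passed the filter on low counts. Whether their counts come from the receptors' own transcripts was not tested.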
